A study of Mus musculus with 2 samples.

Results

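The genes described here are 10 mouse genes that store, take up, export or sense iron. They were matched by gene symbol and are Fth1, Ftl1, Trf, Tfrc, Slc11a2, Slc40a1, Cp, Ireb2, Aco1 and Hamp. All 10 symbols were found, each once, among 55536 annotated genes. Total RNA sequencing was done on hippocampus of 2 adult female B6CASTF1/J mice (hybrids of the C57BL/6J and CAST/EiJ inbred strains) that were 8 to 10 months old. The labels number the mice as animal 1 (replicate 1) and animal 5 (replicate 2), give 300 ng of RNA and added ERCC spike-in RNA for each, and call the tissue a layer of the hippocampus. Both libraries form 1 group with no treatment or genotype contrast, and both carry the same donor identifier, so the spread given here is that between these 2 libraries and may be partly technical. No p-value is given, since 1 group offers no comparison of conditions.

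Annotated genes held 34147402 expected counts in replicate 1 and 28356913 in replicate 2. All 6 excitatory neuron markers of hippocampus were detected, led by Nrgn and Slc17a7, as were all 11 oligodendrocyte, 8 astrocyte and 8 microglia markers. Choroid plexus markers stood apart: their summed level in TPM (abundance per length, scaled to a fixed total per library) was 33.7 in replicate 1 and 658 in replicate 2, mostly through Ttr, although only 5 of the 12 reached 1 TPM in both animals. In such bulk tissue, fewer cells of a type and less RNA per cell cannot be told apart.

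Ferritin is a hollow protein shell that keeps iron in a safe, soluble form. Its heavy chain, made from Fth1, oxidises iron, and its light chain, made from Ftl1, helps to lay down the mineral core. Transferrin (Trf) carries iron outside cells, its receptor (Tfrc) brings it in by endocytosis, and the divalent metal transporter (Slc11a2) moves iron across endosomal and cell membranes. Ferroportin (Slc40a1) exports iron, and ceruloplasmin (Cp), a copper-containing oxidase, oxidises it for loading onto transferrin. When iron is scarce, the iron regulatory proteins IRP1 (Aco1) and IRP2 (Ireb2) bind hairpins in messenger RNA called iron-responsive elements. Binding in a 5′ untranslated region (UTR) blocks translation, as in ferritin, and binding in the 3′ UTR of the transferrin receptor protects the message from decay. Hepcidin (Hamp), a peptide hormone made mainly in liver, brings about the breakdown of ferroportin. In brain, transferrin is made largely by oligodendrocytes and choroid plexus.

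The iron-responsive elements are shown because they are the sequence that links the stores, the receptor and the exporter to the same regulators. Each run below is RNA-sense sequence written as DNA, 5′ to 3′, from the GENCODE M21 transcripts on mm10, the C57BL/6J reference; the CAST/EiJ alleles were not analysed here. Capitals mark the 6-base loop. The bulged C of the element is the 6th base before the loop, and the 5 bases on either side of the loop form the upper stem.
Fth1, 5′ UTR, chr19:9982732-9982760, plus strand: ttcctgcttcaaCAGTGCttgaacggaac
Ftl1, 5′ UTR, chr7:45459779-45459807, minus strand: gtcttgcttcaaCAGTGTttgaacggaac
Slc40a1, 5′ UTR, chr1:45925465-45925493, minus strand: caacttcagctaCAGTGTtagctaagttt
Tfrc site 1, 3′ UTR, chr16:32631219-32631247, plus strand: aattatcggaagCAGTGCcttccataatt
Tfrc site 2, 3′ UTR, chr16:32631598-32631626, plus strand: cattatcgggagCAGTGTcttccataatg
Tfrc site 3, 3′ UTR, chr16:32631663-32631691, plus strand: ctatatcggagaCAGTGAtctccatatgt
Tfrc site 4, 3′ UTR, chr16:32631710-32631738, plus strand: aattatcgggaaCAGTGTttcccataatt
Slc11a2, 3′ UTR, chr15:100395152-100395181, minus strand: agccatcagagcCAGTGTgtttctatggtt

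The Fth1 and Ftl1 elements lie in exon 1 of 4, 115 and 153 bases before the start codon. That of Slc40a1 lies in exon 1 of 8, 207 bases before it. The 4 Tfrc matches lie in the last of 19 exons, between 889 and 1380 bases after the stop codon. The Slc11a2 run, 38 bases after the stop codon in exon 16 of 16, has 1 extra base in its 3′ arm and was found only when that base was allowed. The search asked for a C, 5 bases, CAGTGN and 5 bases that pair with the first 5, G-T pairs included, on the transcript strand. It matched a 5′ UTR of 31 of 20597 genes (0.151%) and a 3′ UTR of 129 of 20979 genes (0.615%), and 4 of the 10 iron genes. With 1 extra base allowed the shares were 0.398% and 1.7%, and 5 of the 10 genes matched. No match was found in the UTRs of Trf, Cp, Ireb2, Aco1 or Hamp, which says only that these letters are not there. In any gene, Tfrc included, the search would miss an element with another loop or with more unpaired stem bases.

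**Figure D1:**
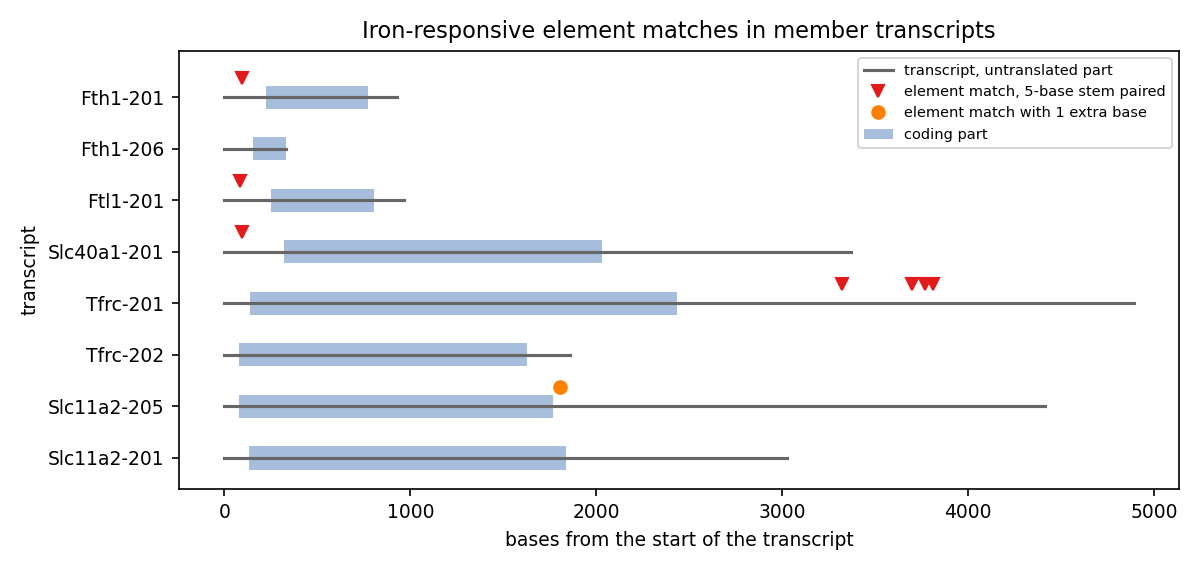
Transcripts of Fth1, Ftl1, Slc40a1, Tfrc and Slc11a2 drawn to scale (x axis, bases from the transcript start), with the coding part as a box and each element match as a symbol. Fth1-206, Tfrc-202 and Slc11a2-201 carry no match, while Tfrc-201 carries 4 after its coding part.

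The heavy chain of ferritin was among the most abundant nuclear protein-coding messages of the tissue. Fth1 (ENSMUSG00000024661.7, chr19:9980598-9985098, plus strand) stood at 1616 TPM in replicate 1 and 1696 in replicate 2, a mean of 1656 ± 56.5 (SD, n = 2). In the gene table it ranked 1 in each animal among 22015 such genes, of which 13010 reached 1 TPM in both. That rank rests partly on a short transcript model: Fth1 ranked 4 in the second transcript table (mean 1347 TPM) and 5 with transcripts of at least 500 bases (mean 1317). In the gene table, the genes nearest to it in level over the 2 libraries were Camk2a, mt-Nd3 and Actb, at distances of 0.13, 0.17 and 0.24 on the log2(TPM + 1) scale. Restricting TPM to nuclear protein-coding genes, which removes mitochondrial and small noncoding RNA from the total, raised the Fth1 mean to 3318.

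The light chain was far lower. Ftl1 (ENSMUSG00000050708.16, chr7:45457944-45459884, minus strand) stood at 91.4 and 77.9 TPM, a mean of 84.6 ± 9.57 (SD, n = 2), and ranked 1266. The nearest genes in level were Zfp148, Prkcz and Hspa4, at 0.02 to 0.03 on the same scale. The level of Fth1 was 17.7 times that of Ftl1 in replicate 1 and 21.8 times in replicate 2, on the length-adjusted TPM scale.

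A near-copy of the light chain gene was nearly as high. Ftl1-201, the main Ftl1 transcript, shares 756 of its 938 31-base words (80.6%) with Ftl1-ps1, a copy on chr13:74399694-74407346 that the annotation calls protein-coding and that carries the same type of element. Ftl1-ps1 was assigned 73.7 and 65.7 TPM, almost the level of Ftl1 itself. The deposited posterior SD of the count, a measure of how uncertainly reads were divided, was 37.6 and 35.2 for Ftl1 and 38.6 and 36.7 for Ftl1-ps1. These are small beside the counts (1617 and 1139 for Ftl1, 1302 and 970 for Ftl1-ps1), and the second table divided the reads nearly alike, with Ftl1 at 81.8 and 69.7 TPM and Ftl1-ps1 at 75.4 and 63.3. Across all other genes, 85.4% of the Ftl1-201 words were shared and 14.6% were its own. Both tables rest on the mm10 reference, and whether CAST/EiJ alleles shift this division was not tested. With Ftl1 and Ftl1-ps1 summed, the Fth1 level was 9.79 and 11.8 times theirs. Fth1 itself shares 12.9% of its words with other genes, and its posterior SD was 0.96 and 0.73 counts.

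Transcripts with the element made up most of the ferritin message. Fth1-201 held 76.3% and 77.2% of the gene's TPM in the first transcript table and 96.3% and 95.5% in the second. The rest of the first table was mostly Fth1-206, a 333-base model without the element, at 21% and 19.9%, which the second table listed at 0. The counts of Fth1-206 were 1669 and 1388 in the first table and 0 in the second, so the tables assigned these reads differently. By counts, transcripts with the element held 90.2% and 90.5% of Fth1 in the first table, and Ftl1-201 held 92.1% and 90.5% of Ftl1.

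Transferrin was the second most abundant of the 10 by mean TPM. Trf (ENSMUSG00000032554.15, chr9:103204001-103230444, minus strand) stood at 147 and 175 TPM, a mean of 161 ± 19.5 (SD, n = 2), ranking 490. Its full-length form, Trf-201, held 51.2% and 54.6% of TPM, and Trf-209, a 433-base retained-intron model, held 42.8% and 41.6%. The counts lay mostly on the full-length form, with 3927 and 4160 for Trf-201 and 443 and 427 for Trf-209. With transcripts of at least 500 bases, which leaves out Trf-209, the Trf mean was 93.3 TPM, beside 84.6 for Ftl1. In the second table Trf-209 held 23.9% and 23.4% and Trf-207 held 16.2% and 15.1%. Trf-201 shares 80.7% of its 31-base words with Gm20425, an overlapping gene model on the same strand, which took 221 and 191 counts, with a posterior SD of 54.1 and 48.7, so the division of reads between both models is uncertain.

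The transferrin receptor was the member that differed most between the animals. Tfrc (ENSMUSG00000022797.16, chr16:32608920-32632794, plus strand) stood at 26.4 TPM in replicate 1 and 47.5 in replicate 2, a mean of 36.9 ± 14.9 (SD, n = 2). Its rank moved from 4848 to 2568. The counts were 1840 and 3007, and Tfrc shares no 31-base word with another gene.

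Tfrc has a long and a short coding form that differ in the element matches. Tfrc-201 (4890 bases) has a 3′ UTR of 2458 bases with all 4 matches found, and Tfrc-202 (1860 bases) has a 3′ UTR of 235 bases with none. Tfrc-201 took 1459 and 2521 counts, 2.07 times as many in replicate 2 after scaling. Tfrc-202 took 251 and 266 counts, 1.27 times (log2 counting interval 0.09 to 0.60). In the second table it took 223 and 212 counts, 1.13 times, with a log2 interval of -0.10 to 0.45 that includes an equal level. Of the counts of both forms, Tfrc-201 held 85.3% in replicate 1 (Wilson 95% interval 83.6 to 86.9) and 90.5% in replicate 2 (89.3 to 91.5). The second table gave 88.2% and 93.0%, so the long form took the larger share in replicate 2 in both tables.

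The metal transporter gene gives both element-bearing and element-free messages too. Slc11a2 (ENSMUSG00000023030.16, chr15:100387898-100425072, minus strand) stood at 26.2 and 41 TPM, a mean of 33.6 ± 10.5 (SD, n = 2), although its counts of 1337 and 1291 were close. Most of the TPM gap came from Slc11a2-204, a 393-base model at 0 counts in replicate 1 and 54 in replicate 2, where those 54 counts made 25.3% of the gene's TPM. The second table listed that model at 0 in both animals and put 33.8% on another short model, Slc11a2-207, in replicate 2. Slc11a2 transcripts under 500 bases held 8.90% and 36.4% of TPM but 1.06% and 5.95% of counts.

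Among the long Slc11a2 forms, the one with the element was the larger. Slc11a2-205 (4415 bases), which ends in the 3′ UTR with the relaxed match, took 952 and 948 counts, and Slc11a2-201 (3025 bases), which ends elsewhere, took 251 and 152. Slc11a2-205 therefore held 79.1% of their counts in replicate 1 (Wilson interval 76.7 to 81.3) and 86.2% in replicate 2 (84.0 to 88.1), and 78.7% and 86.3% in the second table. After scaling, Slc11a2-205 was 1.19 times as high in replicate 2 and Slc11a2-201 was 0.725 times as high. Of the paired long forms of Tfrc and of Slc11a2, the element-bearing one thus held a larger share of the pair's counts in replicate 2. Such a shift was not limited to pairs with an element: Cp-201 and Cp-202 carry none, and Cp-201 held 39.4% and 69.9% of their counts. How often transcript pairs of other genes shift in this way was not counted. As a share of the whole gene's TPM, Slc11a2-205 was lower in replicate 2, at 40.0% and 30.4% in the first table and 27.7% and 23.6% in the second, and as a share of the gene's counts it was 71.2% and 73.4%. The Wilson intervals of these shares leave out the error of dividing reads between forms, so they are narrower than the full error. The deposited posterior SD of the count was 56.5 and 67.7 for Tfrc-201 and 26.9 and 36.0 for Tfrc-202. It was 19.6 and 19.2 for Slc11a2-205 and 18.6 and 15.0 for Slc11a2-201. Whether animals in general differ in this way was not tested with 2 libraries.

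**Figure D2:**
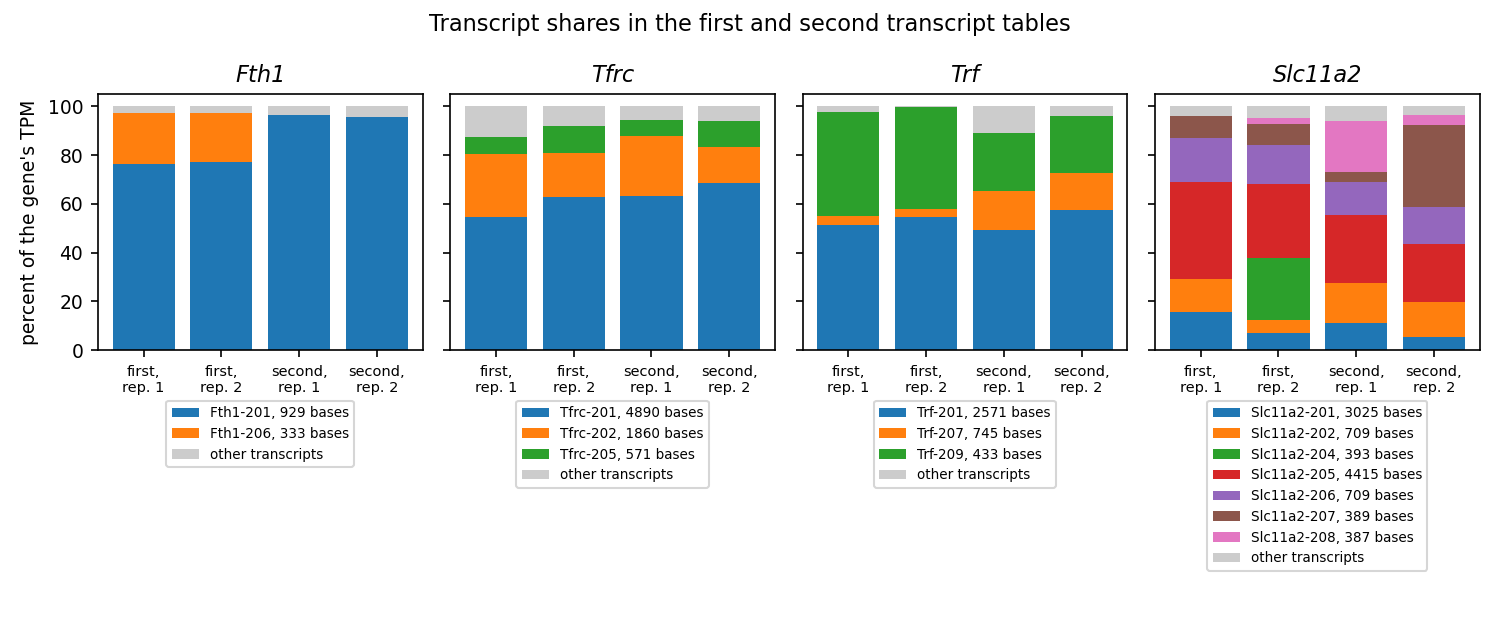
Percent of each gene's TPM (y axis) held by its named transcripts for Fth1, Tfrc, Trf and Slc11a2, in both transcript tables and both replicates (x axis). Tfrc-201 held 54.8% and 62.9% in the first table, while the short models of Fth1, Trf and Slc11a2 differed most between the tables.

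The 2 export genes were the lowest of the detected members. Slc40a1, the ferroportin gene (ENSMUSG00000025993.10, chr1:45908068-45926523, minus strand), stood at 5.40 and 5.68 TPM, a mean of 5.54 ± 0.198 (SD, n = 2). The element-bearing Slc40a1-201 held 74.2% and 75.2% of that, and 62.7% and 87.1% in the second table. Cp, the ceruloplasmin gene (ENSMUSG00000003617.16, chr3:19957054-20009145, plus strand), stood at 5.51 and 5.53 TPM, a mean of 5.52 ± 0.014 (SD, n = 2).

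The Cp total was even in TPM of the gene table, although the counts were 365 and 267 (log2 ratio -0.19, interval -0.43 to 0.04). In the second table the TPM was 5.04 and 6.04. Retained-intron models held 23.4% and 38.5% of Cp TPM in the first transcript table. The long forms of Cp also differed between the animals. Cp-201 (4092 bases) took 100 counts in replicate 1 and 146 in replicate 2, and Cp-202 (4029 bases) took 154 and 63. Cp-201 therefore held 39.4% of their counts in replicate 1 (Wilson interval 33.6 to 45.5) and 69.9% in replicate 2 (63.3 to 75.7). The second table gave 41.4% and 64.3%. These forms rest on at most 154 counts each, with a posterior SD of 12.6 to 20.5, and Cp overlaps Hps3 on the opposite strand by 13201 bases, so reads of the 2 genes may be mixed if strand was not used in counting.

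The iron sensors lay at nearly 1 level in both animals. Ireb2, which encodes IRP2 (ENSMUSG00000032293.8, chr9:54863789-54912530, plus strand), stood at 25.7 and 25.4 TPM, a mean of 25.5 ± 0.219 (SD, n = 2). Aco1, which encodes IRP1 and also serves as cytosolic aconitase (ENSMUSG00000028405.9, chr4:40143081-40198338, plus strand), stood at 13.7 and 14.1 TPM, a mean of 13.9 ± 0.304 (SD, n = 2). Ireb2 was above Aco1 in both animals, by more than the SD of either. Both were mostly 1 transcript, with Ireb2-201 at 95.9% and 90.7% and Aco1-201 at 89.4% and 90.5%.

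Hamp, the hepcidin gene (ENSMUSG00000050440.8, chr7:30942368-30944032, minus strand), had 0 counts in both animals. A count of 0 allows up to 3 counts, equal to 0.459 TPM in replicate 1 and 0.549 in replicate 2, counting error only. Its near-copy Hamp2, which shares 33.7% of the words of Hamp-201, was also at 0.

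The 10 genes thus fell in the order Fth1, Trf, Ftl1, Tfrc, Slc11a2, Ireb2, Aco1, Slc40a1, Cp and Hamp by mean TPM. In 6 of the 9 neighbouring pairs the gap exceeded the SD of both genes, with 1 order in both animals. Tfrc and Slc11a2, Slc11a2 and Ireb2, and Slc40a1 and Cp did not differ beyond their spread.

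**Figure D3:**
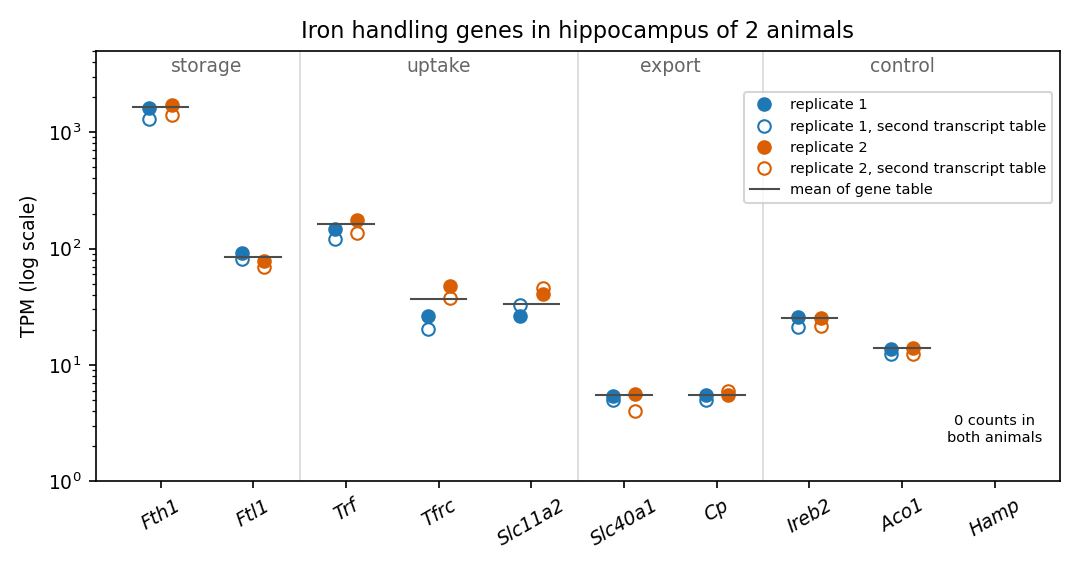
Level of each gene in TPM (log scale) in replicate 1 and replicate 2, grouped by role, with filled points for the gene table, open points for the second transcript table and a line at the mean of the gene table. Fth1 sits near 1656 TPM, about 10 times above Trf, and the export genes sit near 5.5.

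Between the 2 animals, none of the 9 detected genes differed at least 2-fold (log2 ratio of at least 1 in size, mean count of at least 50 and a counting interval that excludes a ratio of 1). Of all 14434 genes with such a mean count, 159 met the criterion (1.10%), so a count of 0 among 9 is near that background. The exact 95% interval, which covers counting error only, excluded a ratio of 1 for Fth1, Ftl1, Trf, Tfrc and Slc11a2, that is 5 of 9, beside 44.3% of all genes. The median size of the log2 ratio was 0.19 over the 9 genes and 0.14 over all.

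Tfrc came closest to the criterion. After scaling by trimmed mean of M-values it was 1.95 times as high in replicate 2 (interval 1.84 to 2.07, log2 ratio 0.97), and 0.92 from the second table. Of 3774 genes of like count, 12, Tfrc included, lay at least as far from equality (0.318%). Trf was 1.24 times as high in replicate 2 (log2 ratio 0.31, interval 0.25 to 0.37). Of 2361 genes of like count, 168 lay at least as far (7.12%).

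The other genes moved less. Slc11a2 had a log2 ratio of 0.21 (interval 0.10 to 0.32) and Fth1 of 0.08 (0.05 to 0.11), and with spike-in scaling both turned negative, at -0.03 and -0.16, as did Slc40a1 (from 0.01 to -0.23) and Aco1 (from 0.06 to -0.18). Ftl1 had a ratio of -0.25 (interval -0.36 to -0.14), an interval that leaves out the division of reads with Ftl1-ps1. The intervals of Slc40a1, Cp, Ireb2 and Aco1 included a ratio of 1. Spike-in scaling lowered every ratio, with a median over all tested genes of -0.26 in place of -0.02, and Tfrc then stood at 0.72 and Trf at 0.07.

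The choroid plexus markers were higher in the same animal as Tfrc and Trf, with 8 of 12 tested, 7 of them at least 2-fold higher and a median log2 ratio of 2.81. Oligodendrocyte markers summed to 1620 and 1691 TPM (median log2 ratio 0.12, none 2-fold apart). Of these 11 markers, 8 were higher in replicate 2 and 3 lower, with log2 ratios from -0.33 (Ermn) to 0.81 (Opalin). Endothelial markers, of cells that carry the receptor at the blood-brain barrier, summed to 106 and 109 TPM (median -0.05). Blood markers summed to 346 and 334 TPM. Meningeal fibroblast markers were lower in replicate 2, at 58.4 and 42.4 TPM, with 5 of 6 below a ratio of 1 and a median log2 ratio of -0.51. The part of any of these cells in the ratios of Tfrc and Trf was not tested.

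**Figure D4:**
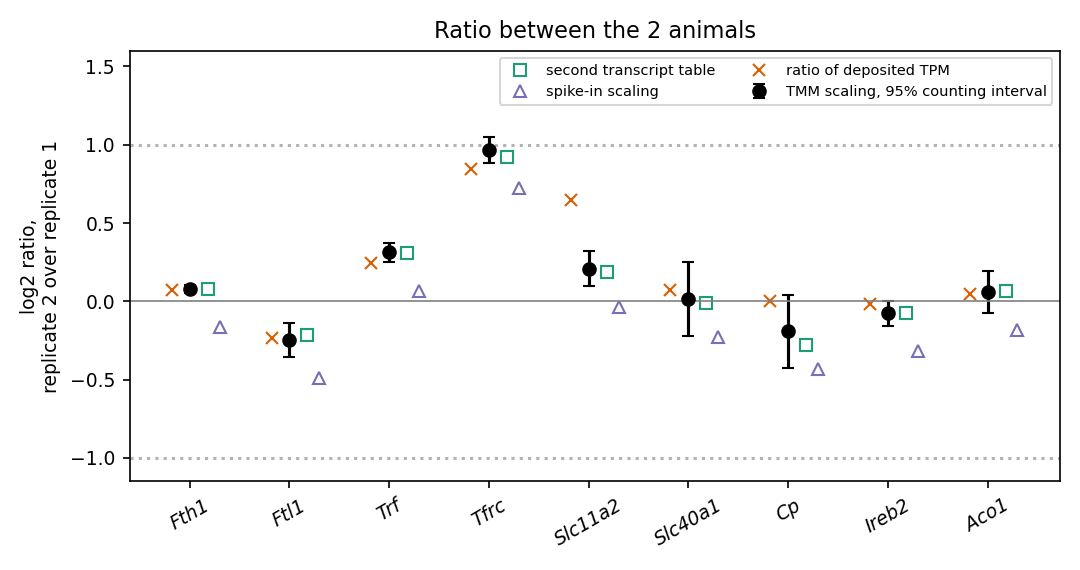
Log2 ratio of replicate 2 over replicate 1 (y axis) for the 9 detected genes, with the exact 95% counting interval as a bar, and the same ratio from the second transcript table, spike-in scaling and deposited TPM. Dotted lines mark 2-fold; Tfrc at 0.97 lies closest to them and Slc11a2 shows the widest gap between its TPM ratio (0.65) and its count ratio (0.21).

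The wider iron and haem pathway was followed in 8 lists of 79 entries, of which 78 were matched and 60 reached 1 TPM in both animals. Of the 60 with enough counts, none differed 2-fold in either direction, where 1.10% of all genes did. Of the 60, 25 had a log2 ratio above 0 and 35 below, beside 54.1% of all tested genes below 0. All 5 chaperones and ferritin turnover genes were detected, led by Skp1a (240 ± 0.771 TPM), part of the ubiquitin ligase that degrades IRP2, and Pcbp2 (232 ± 10.5), which delivers iron to ferritin. Fbxl5, the iron-sensing subunit of that ligase, was the lowest at 47.7 ± 2.38 (SD, n = 2).

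In uptake and reduction, 9 of 13 genes were detected, with Slc22a17, a lipocalin receptor, at 313 ± 2.81 TPM, Mcoln1, a lysosomal channel, at 44.6 ± 1.29, and Lcn2, a lipocalin that binds iron-carrying siderophores, at 0.125 ± 0.064. In export and oxidation, 2 of 3 were detected: App, reported to bind ferroportin, stood at 602 ± 4.30 TPM, Heph, a ceruloplasmin-like oxidase, at 2.2 ± 0.403, and Hephl1 at 0.015. In hepcidin control, 8 of 12 were detected, with Neo1, a receptor for hemojuvelin, at 39.8 ± 0.70 and Smad4, the shared Smad of bone morphogenetic protein signalling, at 31 ± 3.0 TPM highest, and the median log2 ratio of the 8 tested genes was -0.11, beside -0.02 over all genes.

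All 15 genes of mitochondrial iron and iron-sulphur cluster assembly were detected, among them Hspa9, a mitochondrial chaperone, at 87.4 ± 2.30 TPM. All 9 haem synthesis genes were detected, with Alas1, the general form of the first enzyme, at 77 ± 3.34 and Fech, which inserts the iron, at 37.3 ± 0.629 TPM. The erythroid form Alas2 was lowest at 1.61 ± 0.325. In haem breakdown and transport, 9 of 13 were detected, with Lrp1, a receptor for haemopexin-bound haem, at 141 ± 3.18, Slc48a1, a haem transporter, at 66.0 ± 3.63 and Hp, haptoglobin, at 0.18 ± 0.028 TPM. Of the ferritin paralogues, 3 of 8 matched were detected, Ftl1-ps1 and Ftl2-ps (6.18 ± 0.375 TPM) highest, and Ftl1-ps2 was at 0. The level of Ftl2-ps rests on how reads were divided: its posterior SD was 17.7 on 56.3 counts in replicate 1, and the second table gave 0.526 and 1.03 TPM.

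**Figure D5:**
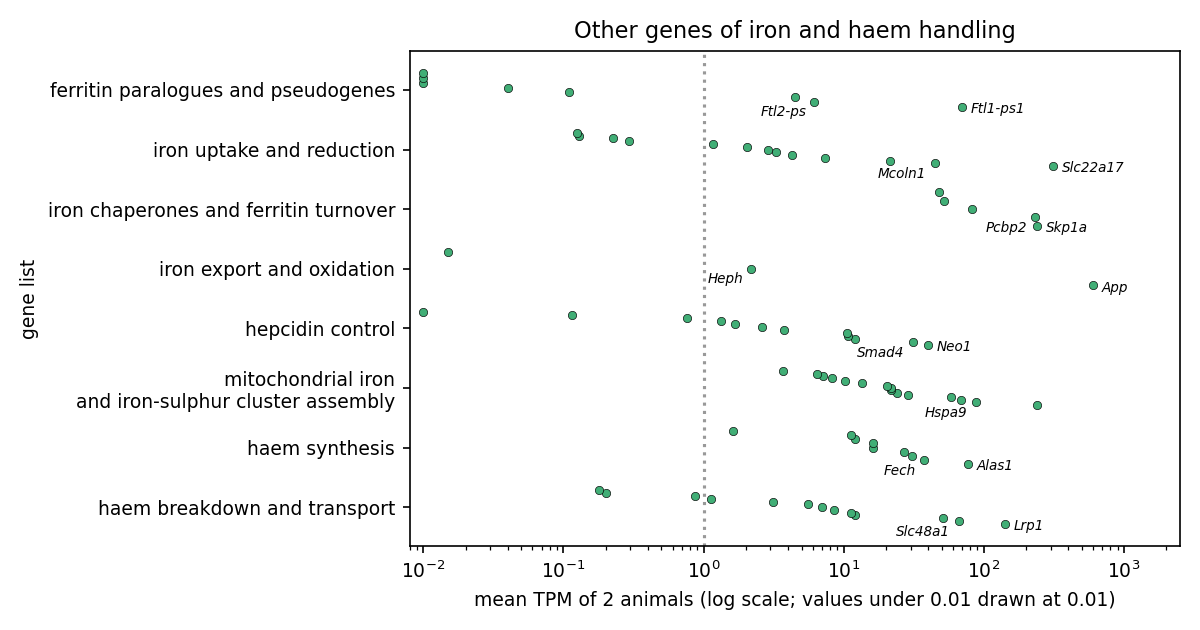
Mean TPM over both animals (log x axis) of each gene in the 8 lists (y axis), with 1 or 2 of the highest genes of each list named and a dotted line at 1 TPM. Every gene of the chaperone, mitochondrial and haem synthesis lists lies right of the line, while ferritin paralogues and hepcidin control genes reach down to 0.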

How the data were processed

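Levels are the TPM of the deposited gene tables. The authors also deposited, in those tables, expected counts per gene and FPKM values, with reads divided among matching transcripts, per the file headers. The authors' first transcript table gives each transcript's percent of its gene's expression, per the file headers. The deposited posterior SD of a count is a spread of the read signal given per the file headers. Of the gene table, 26345 entries with no annotated gene, spike-ins included, were left out of library sizes. A second deposited transcript table per library holds estimated counts and TPM from another quantifier. The mm10 build and GENCODE M21 annotation are per the labels and accompanying notes; for aligner versions and the strand setting the sources used here give nothing. The share of TPM held by short transcripts depends on each table's effective length.

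Expected counts were rounded, and each gene's log2 ratio of replicate 2 over replicate 1 was computed on the whole gene table with TMM scaling (edgeR 4.0.16 in R 4.3.3) and a prior count of 2. Exact Clopper-Pearson 95% intervals, like the Wilson intervals of shares (scipy 1.17.1), cover counting error only. The calculation was tested on simulated counts. Alternatives were DESeq2 1.42.0 size factors, total counts, ERCC spike-ins, the second table, a prior count of 0.5, no count minimum, FPKM rescaled to TPM, nuclear protein-coding genes only and each library alone. Named genes were all 10 members, the 2 highest and the lowest gene of each list, transcripts of at least 10 percent of a member's TPM in any table, and the 3 nearest genes to each ferritin chain. Some genes that this rule names are not reported here. The members and lists were chosen with earlier results of these data known.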

Additional observations from a re-analysis of the deposited data

How the results depend on the processing

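No iron gene differed 2-fold between the animals under any setting tried, and 5 to 7 of 9 neighbouring pairs stood apart in level. The interval excluded a ratio of 1 for 5 to 7 of the 9 genes, with 7 under spike-in scaling and in the second table. The order of levels held less well: 6 of 10 genes kept their place in the second table, and 6 of 10 with transcripts of at least 500 bases, an alternative added after seeing the data. Fth1 itself ranked 1 in the gene table, 4 in the second table and 5 with transcripts of at least 500 bases. The Fth1 to Ftl1 level ratio of 19.7 ± 2.90 ran from 17.7 to 21.8 with 1 library left out, was 15.7 with transcripts of at least 500 bases, 10.8 with Ftl1-ps1 added to Ftl1, and 9.38 with that sum in the second table (these also added later). Spike-in scaling moved the ratios of all 9 genes. The background of 159 genes became 214 with spike-in scaling, split 46 higher and 168 lower, and 1253 of 27461 (4.56%) with no count minimum. No ratio between animals can be given with a library left out. No paired analysis was possible because the samples form 1 group.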

Other observations

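Several genes outside the 10 hold the same element pattern in an annotated 5′ UTR. Ftl1-ps1 matched with all pairs of the Watson-Crick kind at 69.7 TPM, and Alas2, the erythroid enzyme of haem synthesis, matched with a G-T pair at 1.61. Of the 31 genes with a 5′ match, 26 were detected; among them Ppia stood at 711 TPM, Vti1b at 85.4, Atrx at 80.2 and Nfib at 73.2. A match is a description of letters and pairs, and whether any of these messages binds an iron regulatory protein was not tested.

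The other 11 genes of like count that lay as far between the animals as Tfrc were named after their values were seen. Of these, 9 were lower in replicate 2, among them the activity-induced genes Arc (log2 ratio -2.09), Egr1 (-1.12) and Nr4a1 (-1.07) and the endoplasmic reticulum stress genes Pdia6 (-1.22), Pdia4 (-1.13) and Xbp1 (-0.97). The other lower genes were Slc44a5 (-1.21), mt-Co2 (-1.14) and Hrk (-1.06). The glucocorticoid-induced kinase gene Sgk1 was higher, like Tfrc, with 1263 and 2182 counts (log2 ratio 1.05). The small nuclear RNA gene Gm24497 was also higher (0.99). How many other activity-induced or stress genes shifted was not counted.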
